A study of Homo sapiens with 9 samples.

Results

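The CCT chaperonin subunits were measured in vesicles released by H9 human embryonic stem cells (hESCs). H9 is an established line, and all vesicles came from this line alone. The members were chosen by name, as every probe set that the annotation of the Affymetrix HG-U133 Plus 2.0 array pairs with TCP1, CCT2, CCT3, CCT4, CCT5, CCT6A, CCT6B, CCT7 or CCT8. A probe set is a group of short probes for 1 transcript, read out as 1 signal. Of 54,613 probe sets that are not controls, 13 were paired with 1 of these genes alone, and 8 of the 9 genes had at least 1 such probe set, among 19,775 genes measured in this way. TCP1 was the exception. Its 3 probe sets are annotated to TCP1 and to SNORA29, a small nucleolar RNA gene that lies within it, and their signal is given as TCP1/SNORA29 and kept out of the counts of genes.

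Vesicles were pelleted from the serum-free and feeder-free mTeSR1 medium of the cells, and no agent was added to any group. MVs (microvesicles, n = 3 arrays) were the pellet of a spin at 16,500g for 1 h after 2 clearing spins, and EXOs (exosomes, n = 3) were the pellet of 120,000g for 2 h from the medium left after the MVs. Non-fractionated hESEVs (n = 3), that is all vesicles together, were pelleted at 120,000g for 2 h after a single clearing spin at 300g by the sample labels; the paper's methods give other settings for both the clearing spin and the pelleting spin of hESEVs, and the description of the MVs samples names 200g where the protocol of the labels has 300g. Each pellet is defined by its spins and can hold vesicles of several kinds. Every array received RNA from the same starting amount (200 ng of total RNA), so fewer vesicles that carry an mRNA and less of it in each vesicle cannot be told apart. By the paper's electrophoresis of total RNA, the RNAs of MVs were much longer, and EXOs were rich in small RNAs alone. The share of mRNA in the total RNA was not measured, and its part in the differences below was not tested.

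CCT, also called TRiC, is the chaperonin of the eukaryotic cytosol. Its subunits, each the product of its own gene, form a pair of stacked rings, and a newly made protein folds in the cavity inside a ring as ATP is used. Actin and the tubulins are its best known clients. TCP1 is the alpha subunit, CCT2 beta, CCT3 gamma, CCT4 delta, CCT5 epsilon, CCT6A zeta, CCT7 eta and CCT8 theta. CCT6B is a close relative of CCT6A known mainly from the testis. The study set the mRNA contents of MVs against those of EXOs, and the comparisons below ask how the mRNAs of the subunits differ between these fractions and in the vesicles before fractionation.

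The stretches upstream of 3 of the genes are shown, and the genes were picked by how their signals compared between MVs and EXOs. CCT8 was called higher in MVs than in EXOs with 1 of its 2 probe sets, CCT7 had the largest difference between MVs and EXOs, and CCT6B did not pass the test. Each runs 5′ to 3′ over the 250 bases before the annotated start, on the minus strand for CCT8 (chr21:29073649-29073898) and CCT6B (chr17:34961461-34961710) and on the plus strand for CCT7 (chr2:73234058-73234307), from RefSeq on GRCh38.p14. Capitals mark a CCAAT box (CCAAT, or ATTGG on the other strand) and a GC box (GGGCGG, or CCGCCC on the other strand).
CCT8: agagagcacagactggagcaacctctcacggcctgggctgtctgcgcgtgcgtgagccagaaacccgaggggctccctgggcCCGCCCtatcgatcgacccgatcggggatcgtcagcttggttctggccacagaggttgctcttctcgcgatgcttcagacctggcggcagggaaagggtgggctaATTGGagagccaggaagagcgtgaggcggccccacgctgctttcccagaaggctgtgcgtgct
CCT7: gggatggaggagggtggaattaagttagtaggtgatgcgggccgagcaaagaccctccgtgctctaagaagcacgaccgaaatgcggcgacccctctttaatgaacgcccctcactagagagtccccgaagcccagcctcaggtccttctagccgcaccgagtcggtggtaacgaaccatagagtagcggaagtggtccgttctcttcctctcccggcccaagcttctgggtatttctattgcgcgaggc
CCT6B: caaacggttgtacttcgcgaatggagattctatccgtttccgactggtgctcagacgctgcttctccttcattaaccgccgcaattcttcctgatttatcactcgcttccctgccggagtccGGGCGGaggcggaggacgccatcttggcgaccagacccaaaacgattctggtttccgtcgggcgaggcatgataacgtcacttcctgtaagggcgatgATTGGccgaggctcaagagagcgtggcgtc
CCT8 and CCT6B each held 1 CCAAT box and 1 GC box, and the CCT7 window held neither. Promoter windows were found for 8 of the 9 genes (10 windows, CCT6A unmatched). A CCAAT box was in 5 of the 10 windows, and in 32% of all 35,116 windows of this length. These 5 windows belong to CCT2, CCT3, CCT6B, CCT8 and TCP1. A GC box was in 6 of the 10 windows, from the same 5 genes, and in 42.6% of all windows. The core of a heat shock element (GAANNTTC, the same on both strands) was in 2 of the 10 windows, from CCT2 and TCP1, and in 5.78% of all windows. These matches describe the letters of the windows and were not tested against the array signals.

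Signals are MAS5 intensities on a linear scale, deposited by the authors after each array was scaled to a trimmed mean of 500. Array medians ran from 358 to 365 in MVs, from 422 to 429.7 in EXOs and from 415 to 421 in hESEVs. Beside this, 908 to 945 probe sets exceeded a signal of 5000 on each MVs array, 293 to 319 on each EXOs array and 441 to 463 on each hESEVs array. Of the hESC markers, 11 of 12 were measured, and 11 lay above background in MVs, 7 in EXOs and 9 in hESEVs; their summed signal was 68,328 to 71,081, 13,878 to 17,055 and 19,759 to 22,653. Of 10 markers of differentiating cells, 0 lay above background in MVs and in hESEVs and 1, HAND1, in EXOs. The background level used here is the 90th percentile of 26 measured tissue-restricted genes, which was 544 in MVs, 1003 in EXOs and 942 in hESEVs.

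CCT subunit mRNAs were much higher in MVs than in EXOs. By gene, 7 of the 8 measured genes rose in MVs, from CCT4 (5.32-fold) to CCT7 (37.9-fold), and CCT6B did not pass the test. Among all genes, 11.6% were called higher in MVs by the same rule, which asks for a 2-fold difference and for a limma p under 0.05 after Benjamini-Hochberg adjustment. All MVs arrays lay above all EXOs arrays for the same 7 genes, an order that 18.8% of all genes showed. The median log2 difference, MVs minus EXOs, was 3.09 over the 8 genes and -0.23 over all genes.

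CCT8, the theta subunit, gave signals of 9819, 10,387 and 9189 on the 3 MVs arrays, 668, 836 and 949 on the EXOs arrays and 2011, 2246 and 1838 on the hESEVs arrays with its probe set 200873_s_at. All MVs arrays lay above all others, and all hESEVs arrays lay above all EXOs arrays. The means were 9798 ± 599 (SD, n = 3) in MVs and 818 ± 142 (n = 3) in EXOs, a 12.0-fold difference (log2 difference 3.60, 95% confidence interval 3.27 to 3.92, limma adjusted p = 5.9e-07).

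CCT2, the beta subunit, gave 8039, 7578 and 8474 in MVs, 1275, 1466 and 1342 in EXOs and 2392, 2699 and 2568 in hESEVs with 201947_s_at. The 3 groups did not overlap, with hESEVs between the fractions. MVs were 5.90-fold above EXOs (8030.5 ± 448 against 1361 ± 96.9, SD, n = 3 each, log2 difference 2.56, interval 2.33 to 2.79, limma adjusted p = 5.7e-07).

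CCT4, the delta subunit, gave 6556, 7836 and 7582 in MVs, 1770.0, 1238 and 1123 in EXOs and 1578, 1415 and 1593 in hESEVs with 200877_at. Here hESEVs overlapped EXOs, and MVs stood above both. The difference between MVs and EXOs was 5.32-fold (7324 ± 678 against 1377 ± 345, SD, n = 3 each, log2 difference 2.44, interval 2.04 to 2.83, limma adjusted p = 2.1e-05), the smallest among the 7 genes.

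CCT3, the gamma subunit, has a single probe set, 200910_at, which gave 5616, 5840.0 and 5404 in MVs, 411, 372 and 253 in EXOs and 1018, 1575 and 1383 in hESEVs. The groups did not overlap. MVs were 16.3-fold above EXOs (5620 ± 218 against 345 ± 82.2, SD, n = 3 each, log2 difference 4.06, interval 3.61 to 4.50, limma adjusted p = 1.7e-06).

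CCT5, the epsilon subunit, gave 4846, 3815 and 4477 in MVs, 159, 126 and 248 in EXOs and 632, 531 and 279 in hESEVs with 208696_at. The lowest hESEVs array lay just above the highest EXOs array. MVs were 24.6-fold above EXOs (4379 ± 522 against 178 ± 63.4, SD, n = 3 each, log2 difference 4.67, interval 4.05 to 5.29, limma adjusted p = 5.9e-06). This probe set stands for the gene through its high signal in MVs. In EXOs the other, 229068_at, was the brighter, with a mean of 385. It showed no such difference between MVs and EXOs (log2 difference 0.14, limma adjusted p = 0.88), so the size of the CCT5 difference depends on the choice of probe set. The call by gene held in all 21 alternatives, with 2.40 as the lowest log2 difference. None of these alternatives used 229068_at alone for this comparison.

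CCT7, the eta subunit, also has a single probe set, 200812_at, with 2802, 2330.5 and 2396 in MVs, 68.0, 76.3 and 54.5 in EXOs and 517, 78.4 and 135 in hESEVs. The hESEVs arrays were spread widely, and the lowest of them was close to the EXOs. MVs were 37.9-fold above EXOs (2510 ± 256 against 66.3 ± 11, SD, n = 3 each, log2 difference 5.25, interval 4.46 to 6.05, limma adjusted p = 1.3e-05).

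CCT6A, the zeta subunit, has 2 probe sets and both were called higher in MVs. The brighter, 201327_s_at, which stands for the gene, gave 3581, 2711 and 3027 in MVs, 577, 523 and 461 in EXOs and 664, 706 and 1117 in hESEVs. MVs were 5.97-fold above EXOs (3106 ± 440.3 against 520.2 ± 58.2, SD, n = 3 each, log2 difference 2.57, interval 2.20 to 2.95, limma adjusted p = 1.1e-05). With 201326_at the signals were 2668, 1544 and 2819 in MVs, 72.4, 119 and 53.0 in EXOs and 568, 406 and 531 in hESEVs. This was a 28.7-fold difference, so the direction was shared by both probe sets and the size was not.

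CCT6B differed from its relative. Its probe set 206587_at gave 579, 553 and 404 in MVs, 873, 693 and 729 in EXOs and 452, 720.5 and 623 in hESEVs. All EXOs arrays lay above all MVs arrays, an order that 22.4% of all genes showed, and hESEVs overlapped both. The log2 difference, MVs minus EXOs, was -0.59 (interval -1.18 to 0.00, limma adjusted p = 0.14), and in no group did the mean signal of CCT6B exceed the background level.

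The 3 probe sets of TCP1/SNORA29 were all called higher in MVs. With 208778_s_at the signals were 3660.1, 3949.7 and 3436 in MVs, 479.8, 390.1 and 588 in EXOs and 1039.6, 1271 and 1145 in hESEVs, a 7.57-fold difference between MVs and EXOs (log2 difference 2.94, interval 2.54 to 3.34, limma adjusted p = 2.0e-05 over all probe sets). The others were 4.48-fold (222011_s_at) and 2.68-fold (222010_at) higher in MVs. The call of 222011_s_at (limma adjusted p = 0.015) was ended by 7 of 18 alternatives, among them leaving out any MVs array (log2 difference 2.39 to 2.54) or EXOs array 3 (2.20). With 222011_s_at, 1 EXOs array read 793 and the other two 202 and 244.5, and the log2 difference of 2.44 became 3.05 without the first. Which part of these signals came from TCP1 mRNA and which from SNORA29 RNA was not tested.

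**Figure D1:**
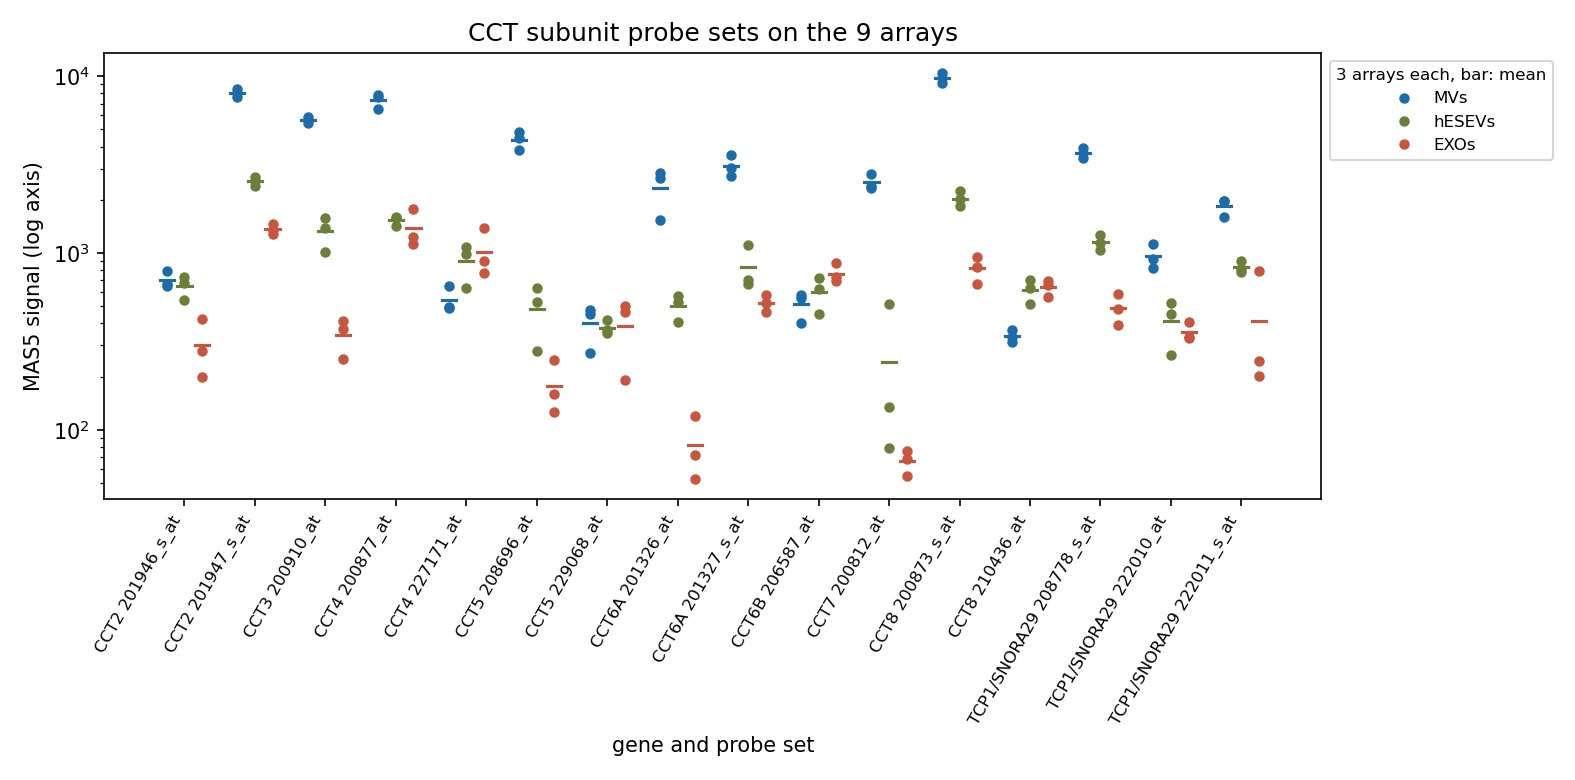
MAS5 signal (log axis) of every probe set of the CCT subunits on the 9 arrays, 3 each for MVs (blue), hESEVs (green) and EXOs (red), with a bar at each group's mean. The MVs lie above the EXOs for 7 subunit genes, for example at 9189 to 10,387 against 668 to 949 for CCT8 200873_s_at, while CCT6B and the second probe sets of CCT4, CCT5 and CCT8 do not show this order.

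The EXOs level limits how exactly these folds are known. All 7 genes called had a mean MVs signal above the MVs background level of 544, but in EXOs only CCT2 and CCT4 exceeded the level of 1003, and the other 5 did not. For CCT3, CCT5, CCT6A, CCT7 and CCT8 the direction is measured and the size of the fold is uncertain. GAPDH, a glycolytic enzyme often used as a reference, was 13.1-fold higher in MVs (log2 difference 3.71), which is larger than the log2 difference of CCT2 and CCT4, the 2 genes above background in both fractions. The differences among these genes were not tested.

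Placed among all 19,775 genes, the 7 subunits called lay at the upper end. The log2 difference of CCT4 was larger than that of 95.2% of all genes, that of CCT8 larger than 98.6%, and that of CCT7 larger than 99.9%. CCT6B lay within the bulk, above 29.4% of genes.

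**Figure D2:**
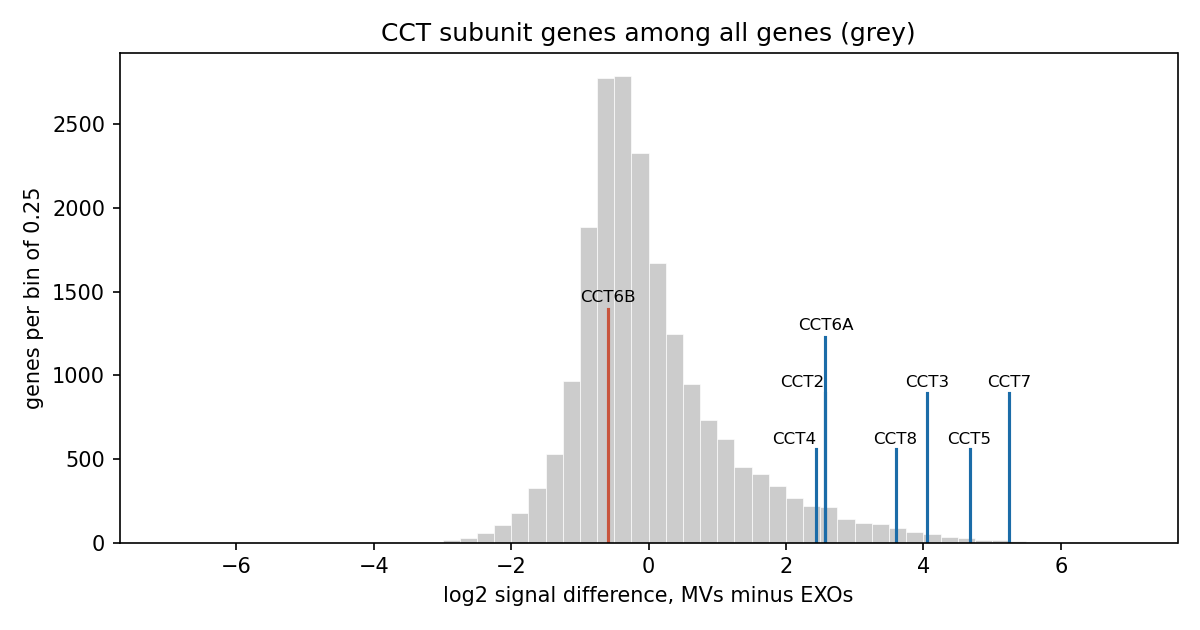
Histogram of the log2 signal difference, MVs minus EXOs, over all 19,775 genes (grey, genes per bin of 0.25), with a line at each CCT subunit gene (blue where called higher in MVs, red for CCT6B; the heights of the lines carry no value). The 7 blue lines run from 2.44 (CCT4) to 5.25 (CCT7), to the right of most genes, and CCT6B is at -0.59.

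Probe sets of 1 gene did not always move together. Of the 13 probe sets, 8 were called higher in MVs and 0 higher in EXOs, where 7.23% of all probe sets were called higher in MVs and 1.97% higher in EXOs. At an unadjusted limma p under 0.05 with the same fold, 9 were higher in MVs and 0 in EXOs. The shares of all probe sets given above hold for the adjusted p alone. Those at the unadjusted p were not computed. The 5 that were not called were CCT6B and the second probe sets of CCT2, CCT4, CCT5 and CCT8.

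The second CCT2 probe set, 201946_s_at, gave 794, 665 and 652 in MVs, 423, 200.2 and 278 in EXOs and 728, 672 and 540.0 in hESEVs. Its MVs and EXOs arrays did not overlap, in the same order as the first (13.2% of all probe sets showed this order), and its log2 difference was 1.29 (limma adjusted p = 0.054).

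The second CCT4 probe set, 227171_at, ran the other way, with 492, 648 and 496 in MVs, 1378, 905 and 773 in EXOs and 1088, 635 and 989 in hESEVs. It did not pass the test (log2 difference -0.87, limma adjusted p = 0.075), and its MVs and EXOs means were close to the background levels of their groups.

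The second CCT8 probe set, 210436_at, gave 337, 368 and 315 in MVs, 691, 663 and 561 in EXOs and 512, 701 and 633 in hESEVs (log2 difference of MVs and EXOs -0.91, limma adjusted p = 0.068). All MVs arrays lay below all EXOs arrays, as they did for 21.5% of all probe sets, and no group mean was above background. The second CCT5 probe set, 229068_at, gave 272, 454 and 473 in MVs, 501, 463 and 190.1 in EXOs and 351.04, 417 and 366 in hESEVs, which all overlap (log2 difference of MVs and EXOs 0.14, limma adjusted p = 0.88), and was likewise under background in each group.

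These second probe sets decide 2 of the calls by gene under other ways of combining them. When the probe sets of a gene were averaged, the log2 difference of CCT4 was 0.78, under 2-fold. When probe sets marked as able to match several transcripts (_s_at and _x_at) were left out, only the dim probe set of CCT8 stayed and its value became -0.91. CCT2 was not measured in that setting, as both of its probe sets are so marked. Control probe sets for the 3′ and the 5′ end of ACTB mRNA differed by 4.57 ± 0.08 on the log2 scale in MVs, 3.24 ± 0.14 in hESEVs and 2.61 ± 0.14 in EXOs (SD, n = 3 each), and those of GAPDH by 1.53, 1.04 ± 0.12 and 0.67 ± 0.17. The part of this difference between groups in the results by probe set was not tested.

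**Figure D3:**
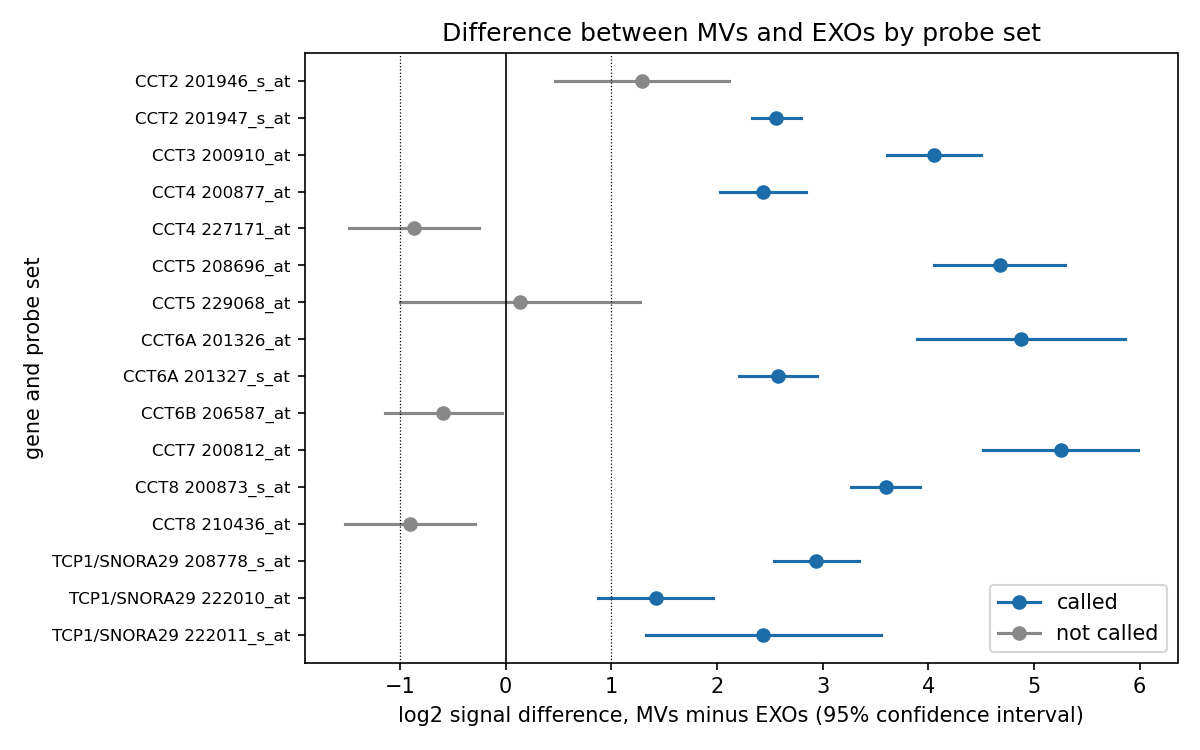
Log2 signal difference, MVs minus EXOs, of each probe set of the CCT subunits (points) with its 95% confidence interval from limma (lines), blue where called and grey where not. Dotted lines mark a 2-fold difference; the called probe sets run from 1.42 (TCP1/SNORA29 222010_at) to 5.25 (CCT7), and grey points for CCT4, CCT6B and CCT8 lie left of 0.

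In hESEVs, CCT subunit mRNAs were lower than in MVs. By gene, 7 of 8 fell below MVs, where 7.17% of all genes were called higher in MVs than in hESEVs, and CCT6B did not pass the test (log2 difference, hESEVs minus MVs, 0.22, limma adjusted p = 0.65). The median log2 difference over the 8 genes was -2.18, and 0.15 over all genes. All hESEVs arrays lay below all MVs arrays for these 7 genes, as for 17.1% of all genes. Of the 4 genes whose hESEVs mean was above the background level of 942, CCT8 gave a log2 difference of -2.27, CCT4 -2.26, CCT3 -2.11 and CCT2 -1.65, the last a 3.15-fold higher signal in MVs. CCT7 (-3.83, limma adjusted p = 0.0019), CCT5 (-3.26) and CCT6A (-1.94) had hESEVs means of 243, 481 and 829, under that level, so that the size of their fall is uncertain. For CCT7 the value depended on single arrays and was -4.60 without the first hESEVs array, which read 517, and -3.24 without the second, which read 78.4. With quantile normalization the CCT2 difference was -0.57, under 2-fold, and the methods' t-test with adjustment did not call CCT7. With probe sets averaged, CCT2 (-0.89), CCT4 (-0.78) and CCT8 (-0.71) were no longer called, and without probe sets marked as able to match several transcripts CCT8 gave 0.85. The second probe sets of CCT2 (201946_s_at, -0.13, limma adjusted p = 0.86) and CCT5 (229068_at, -0.04, limma adjusted p = 0.97) did not show the fall. Those of CCT4 (227171_at, 0.70, limma adjusted p = 0.17) and CCT8 (210436_at, limma adjusted p = 0.074) ran the other way and did not pass. That of CCT6A (201326_at) fell as well (-2.19, limma adjusted p = 0.0057).

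Between hESEVs and EXOs the subunits differed less. CCT3, CCT5 and CCT8 were called higher in hESEVs, 3 of 8 genes, where 3.28% of all genes were so called, and 0 were called higher in EXOs, where 0.172% of all genes were. CCT3 was 3.84-fold higher (1325 ± 283 in hESEVs, SD, n = 3, against 345 ± 82.2 in EXOs, limma adjusted p = 0.00014), and CCT8 2.48-fold higher (2032 ± 205 against 818 ± 142, SD, n = 3 each, limma adjusted p = 0.00011). The EXOs means of both genes were under the EXOs background level of 1003, so the size of these folds is uncertain. The call of CCT8 rests on its first probe set, and its value was -0.06 with the other.

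The CCT5 call between hESEVs and EXOs was marginal. Its means, 481 ± 182 in hESEVs and 178 ± 63.4 in EXOs (SD, n = 3 each), were both under background, so no fold is given. The log2 difference was 1.41 (limma adjusted p = 0.040), and 13 of 21 alternatives ended the call. In 3 of the 13 the second probe set, 229068_at, was the brighter and took the place of 208696_at (log2 difference 0.09). Among alternatives that kept 208696_at, p ran from 0.0018 (limma without adjustment) to 0.16 (adjusted). Leaving out the first or second EXOs array (log2 difference 1.36 and 1.19) or the first or second hESEVs array (1.17 and 1.30) was each enough.

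CCT2 was 1.88-fold higher in hESEVs than in EXOs, with no overlap of arrays (as for 11.2% of all genes) and a limma adjusted p of 0.00016, but under the 2-fold of the rule. Its other probe set, 201946_s_at, gave a log2 difference of 1.16 (limma adjusted p = 0.11), with both means under background. CCT4 gave a log2 difference of 0.18 (interval -0.18 to 0.53, limma adjusted p = 0.70), an interval that holds no 2-fold difference in either direction. The means of CCT6A, CCT6B and CCT7 were under background in both groups. For CCT7 the difference was 1.42 (interval 0.03 to 2.82, limma adjusted p = 0.33), and it was 0.65 without the first hESEVs array and 2.01 without the second. CCT6A did not pass with the probe set that stands for the gene (0.64, limma adjusted p = 0.17) and did with 201326_at (2.69, limma adjusted p = 0.0026 over all probe sets, of which 1.95% were called higher in hESEVs). CCT6B gave -0.37 (limma adjusted p = 0.62). With probe sets averaged, CCT2 (1.04, limma adjusted p = 0.0026) and CCT6A (1.66, limma adjusted p = 0.0041) were called. CCT5 (0.75) and CCT8 (0.63) were no longer called in that setting, so which subunits differ from EXOs depends on the choice of probe sets. All 3 comparisons use the same arrays, so they are not independent of each other.

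For the 7 genes called higher in MVs than in EXOs, the hESEVs mean can be placed on the way from the EXOs mean, at 0%, to the MVs mean, at 100%, on the linear scale. CCT4 was at 2.55%, CCT5 at 7.21%, CCT7 at 7.25%, CCT6A at 11.9%, CCT8 at 13.5%, CCT2 at 17.9% and CCT3 at 18.6%. Their median was 11.9%. Over all 2293 genes called higher in MVs the median was 22.1%, with quartiles of 12.9% and 32.8%, so that all 7 lay below that median and 4 below the lower quartile. Of those 4, CCT5, CCT6A and CCT7 had hESEVs and EXOs means that were both under background, and the CCT7 mean rests on 1 array at 517 beside 78.4 and 135, so their exact places are uncertain. With quantile normalization the medians were 19.7% and 33.9%. These places are descriptions without a test.

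**Figure D4:**
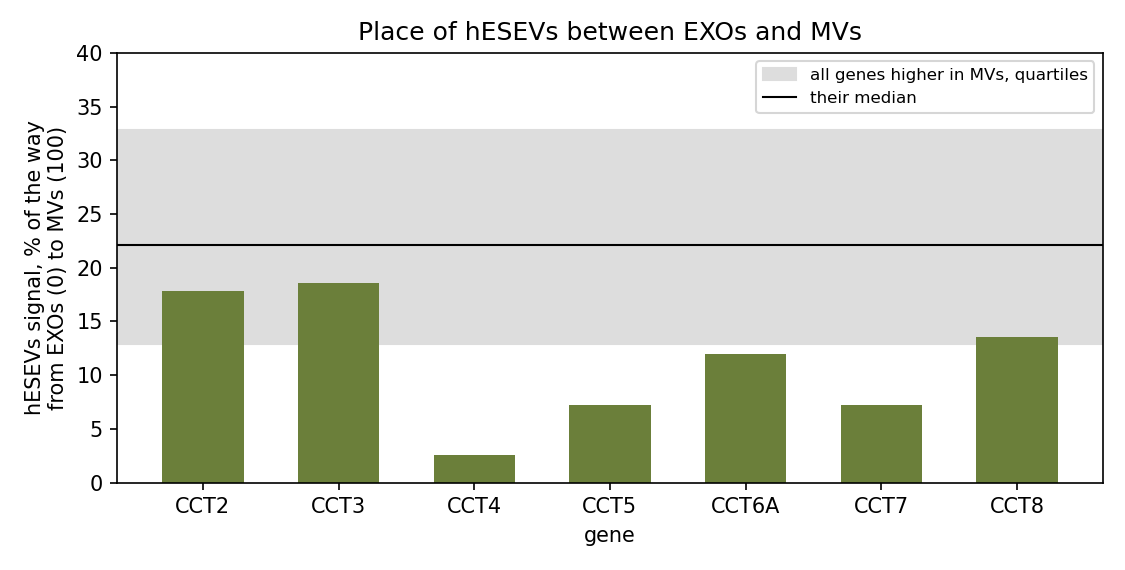
Mean hESEVs signal of 7 CCT subunit genes as a percentage of the way from the EXOs mean (0) to the MVs mean (100), on the linear scale, with the median (line) and quartiles (grey band) over all 2293 genes called higher in MVs. The bars run from 2.55% (CCT4) to 18.6% (CCT3), below the median line at 22.1%.

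The co-chaperones that hand unfolded proteins to CCT or modulate it gave 5 of 8 measured genes higher in MVs than in EXOs, and 0 higher in EXOs. Of all 19,775 genes, 11.6% were called higher in MVs and 548 genes higher in EXOs. The median log2 difference was 1.42 over the co-chaperones and -0.23 over all genes. PFDN4 (8.77-fold), PFDN5 (9.57-fold) and VBP1 (6.98-fold), all subunits of prefoldin, which delivers actin and tubulin to CCT, were among those that rose. PFDN1, also of prefoldin, and the phosducin-like genes PDCL and PDCL2 did not pass the test. Between hESEVs and MVs 4 of the 8 were lower in hESEVs (7.17% of all genes), and between hESEVs and EXOs 3 were higher in hESEVs (3.28% of all genes).

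Of 6 relatives of CCT, 3 rose in MVs over EXOs, with a median log2 difference of 0.96 (11.6% and -0.23 over all genes). HSPD1, the chaperonin of mitochondria, was 6.87-fold higher, HSPE1, its lid, 10.3-fold, and MKKS, a chaperonin-like protein of the Bardet-Biedl syndrome group, 3.71-fold. BBS10, BBS12 and CCT8L2 did not pass the test.

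Of the clients, 16 of 25 measured genes rose in MVs over EXOs, with a median log2 difference of 2.76 (11.6% and -0.23 over all genes). None of the clients was called higher in EXOs, where 548 of all 19,775 genes were. The tubulins TUBB2A (13.5-fold), TUBA1A (13.2-fold) and TUBA1C (10.7-fold) had the smallest p. Tubulin genes are near copies of each other, and how far their probe sets share transcripts was not tested. The 9 that did not pass were TUBB4A, FZR1, PLK1, PPP2R2A, VHL, CCNE1, HDAC3, STAT3 and WRAP53. STAT3, a transcription factor, lay at the edge of the rule with a log2 difference of -0.9998 (limma adjusted p = 0.0096), and 5 alternatives (quantile normalization and leaving out MVs array 2 or 3 or EXOs array 1 or 3) called 1 client higher in EXOs. In hESEVs, 13 clients were lower than in MVs (7.17% of all genes) and 13 higher than in EXOs (3.28% of all genes).

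These lists also depend on the choice of probe sets. Without probe sets marked as able to match several transcripts, 2 co-chaperones, 0 relatives and 6 clients were called higher in MVs. These counts are of fewer genes, since genes with marked probe sets alone, among them HSPE1, PFDN5, TUBA1A and TUBA1C, were not measured there. The share of all genes called in that setting was not computed. HSPD1 gave a log2 difference of -1.30 there, PFDN4 -0.76 and MKKS 0.38. With probe sets averaged, 3 co-chaperones were called, HSPD1 gave 0.45 and PFDN4 0.75, both not called. The share of all genes called with averaging was not computed either. With quantile normalization HSPD1 gave 0.70, under 2-fold.

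Across the 9 arrays, 7 of the 8 subunit genes followed the mean of the other members, with Pearson r from 0.945 (CCT7) to 0.991 (CCT2), while CCT6B gave -0.70. The mean signal of CCT6B was under background in every group, so its r is not a measured opposite profile. The genes whose log2 profile was most like the mean of the members, among 9880 genes with signals above the median, were IQGAP2 (r = 0.9991), CD24 (0.9988), MORF4L2 (0.9984), PTGES3 (0.9983) and ANLN (0.9981). The arrays fall into 3 groups, so these values of r mostly restate the differences between groups, and they are given as a description.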

How the data were processed

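Total RNA of 3 MVs, 3 EXOs and 3 hESEVs samples was hybridised to 1 array each; the paper's methods call the 3 samples of a group biological samples. The authors summarised the scans with MAS5 (version not given in the sources used here) and deposited linear intensities of 54,675 probe sets, scaled to a trimmed mean of 500 (lowest and highest 2% left out) on each array. This scaling makes every signal relative to the rest of its array. The RMA values of the paper's own analysis were not used here.

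Signals under 32 were raised to 32 (3.39% to 5.50% of probe sets on an array) and log2 was taken. The 62 control probe sets were left out. The array annotation gave each probe set its gene; the tests by gene leave out 1801 probe sets with several genes and 11,721 with none, and each gene was represented by the probe set that was brightest on average over the arrays fitted. No symbol had to be updated by the RefSeq table of GRCh38.p14. The test was two-sided limma (version 3.58.1, R 4.3.3; lmFit, then eBayes with a trend), fitted to the 6 arrays of MVs and EXOs for that comparison and to all 9 arrays for both comparisons with hESEVs, with Benjamini-Hochberg adjustment over all genes or all probe sets. A call needed an adjusted p under 0.05 and at least 2-fold. Folds are ratios of mean signals, and log2 differences come from the fit. The precision is limited by the number of arrays, since no counts exist.

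The members and the lists of related genes were chosen with earlier results of these data known. Named genes were every member, the 3 genes of each related list with the smallest p between MVs and EXOs, GAPDH, and the 5 genes most alike in profile; other names are list members that did not pass the test. A planned comparison of the subunit proteins was not run. The procedure was tested on simulated data. Alternatives were limma without adjustment, the methods' t-test (raw or adjusted), median centring, quantile normalization, a shift to the spike-ins, a floor of 1 or 100, a filter on low signals, other arrays in the fit, a replicate block, no trend, averaged probe sets, no probe sets marked as shared, and each replicate left out; counting the TCP1/SNORA29 probe sets as TCP1 was added after seeing the data. Promoters and figures were made with Python 3.11.15, pandas 2.3.3, numpy 2.4.6 and matplotlib 3.10.9.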

Additional observations from a re-analysis of the deposited data

How the results depend on the processing

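The number of CCT subunit genes called higher in MVs than in EXOs was 7, and 5 to 8 under the alternatives, 7 with each replicate left out. CCT2 was not measured where probe sets marked as shared were left out, since both of its probe sets carry that mark. In that setting CCT6A was represented by 201326_at, the probe set with its larger difference. The filter on low signals left out CCT7, the gene with the largest difference, so the count and the median there are over the other genes. Median centring moved the log2 difference of every gene by the same amount. The median log2 difference of the subunit genes between MVs and EXOs was 3.09, and became 2.56 with quantile normalization, 3.32 with median centring, 2.57 with a filter on low signals, 2.17 with probe sets averaged, 4.06 without probe sets marked as shared and 2.94 with TCP1 counted, and ran from 3.05 to 3.13 with each replicate left out. Between hESEVs and MVs, 4 genes in place of 7 were called with probe sets averaged. The shares of all genes called under the alternatives were not computed, and the shares given for the main setting need not hold there. Between hESEVs and EXOs, the methods' t-test with adjustment called 0 genes in place of 3 and 0 probe sets in place of 3. Without adjustment limma called 6 probe sets and the t-test 5, and the shares of all probe sets so called were not computed. Leaving out each replicate gave 2 to 3 genes and 3 to 4 probe sets. The median place of hESEVs was 11.9%, 19.7% with quantile normalization, and 9.60% to 13.6% with each replicate left out. Beyond the genes and probe sets left out and the shift by median centring, the cause of these changes was not tested.

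Some single values changed sign. Without probe sets marked as shared, CCT8 gave -0.91 (MVs minus EXOs), 0.85 (hESEVs minus MVs) and -0.059 (hESEVs minus EXOs), HSPD1 gave -1.30 and PFDN4 -0.76. With each replicate left out, CCT5 229068_at ran from -0.31 to 0.39 between MVs and EXOs, from -0.30 to 0.10 between hESEVs and MVs and from -0.35 to 0.35 between hESEVs and EXOs. Between hESEVs and EXOs, CCT4 227171_at ran from -0.34 to 0.075, CCT8 210436_at from -0.16 to 0.067 and TCP1/SNORA29 222010_at from -0.047 to 0.45.

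Deviations of arrays with the same number correlated at -0.020 to 0.025 over 9887 genes, so the numbers were not taken to pair arrays. With a replicate block, 7 subunit genes were called between MVs and EXOs, 7 between hESEVs and MVs and 2 in place of 3 between hESEVs and EXOs, where CCT5 was lost (adjusted p = 0.075 by limma, and p from 0.0018 without adjustment to 0.16 over the alternatives that kept its probe set 208696_at). The shares of all genes called with the block were not computed.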
